A study of Arabidopsis thaliana and Lactuca sativa with 158 samples.

Results

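Green and red parts of leaves that carry the RUBY reporter under the 35S promoter were compared by target-capture long-read RNA sequencing. The libraries were chosen by their labels: Arabidopsis thaliana leaf, construct 35S::RUBY, genotype Col-0 (Columbia-0), and a title naming green parts or red parts. That gave 13 green-part and 13 red-part libraries, 26 of the 158 in the series. The leaves were 4 weeks old, and no library of either group carried a mutation named in the labels. Each green-part library shares its transgenic line and replicate name with a red-part library, which gives 13 pairs from 8 lines (MK016, MK025, MK040, MK041, MK042, MK043, MK044 and MK045). The labels do not say whether a pair came from a single leaf or plant, or whether each line is an independent insertion. Libraries of fully green leaves (9) and fully red leaves (13) of the same construct and genotype served for comparison.

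RUBY is a transgene whose enzymes turn tyrosine into red betalain, so the colour of a leaf part reports where the transgene's product is made. The 35S promoter of cauliflower mosaic virus drives transcription in most plant tissues, and strongly transcribed transgenes in plants are often silenced. In that pathway RNAs that lack a poly(A) tail or are otherwise aberrant are copied into double-stranded RNA by RDR6 with SGS3, cut into small RNAs by DCL4 and related enzymes, and used by AGO1 to cleave matching transcripts. The capture panel holds RUBY next to the genes of this pathway, sources of phased small RNAs, transposable elements (TEs) and other genes. It holds no leaf marker genes, so the labelled tissue was not checked against expression.

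The tables list 77 targets, each with reads split by strand and by a mark pA, read here as reads with a poly(A) tail. The values are reads scaled to library size (RPM), that is, reads of a target per 1000000 reads of the library. Library totals ran from 407441 to 1585011 reads, and the targets together took 312776 to 915704 RPM. Full-length reads collapsed by molecular identifier were far fewer, 2426 to 11715 molecules per library over all targets. The library numbers written in the tables fall into 2 numbering sets, which the labels do not explain: set 1 holds 4 pairs (MK016 replicates 3 and 4, MK040 replicates 1 and 2) and set 2 the other 9. The summed RPM was 312776 to 655117 in set 1 and 667734 to 915704 in set 2, so results are also given within each set. In bulk libraries, fewer cells that express a gene and less RNA per cell cannot be told apart. The p-values measure the spread between these libraries, and lines with more than 1 pair contribute several of them.

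RUBY was lower in green parts in every pair. All RUBY reads together reached 74415 to 184480 RPM in green parts (median 117192, n = 13) and 207868 to 398818 RPM in red parts (median 293827, n = 13). The highest green library thus lay below the lowest red library, and the groups did not overlap. On the log2(RPM + 1) scale green parts were lower by a mean difference of -1.33 (SE 0.14), lower in 13 of 13 pairs (permutation test, 100000 resamples, two-sided, adjusted p = 3e-05, which rests on the smallest p these resamples can give). Among the 57 targets tested together with limma, RUBY alone passed an adjusted p of 0.05 (adjusted p = 2e-05), which is 1.75% of the targets. RUBY was also the single target whose green and red libraries did not overlap, again 1.75% of those tested.

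**Figure D1:**
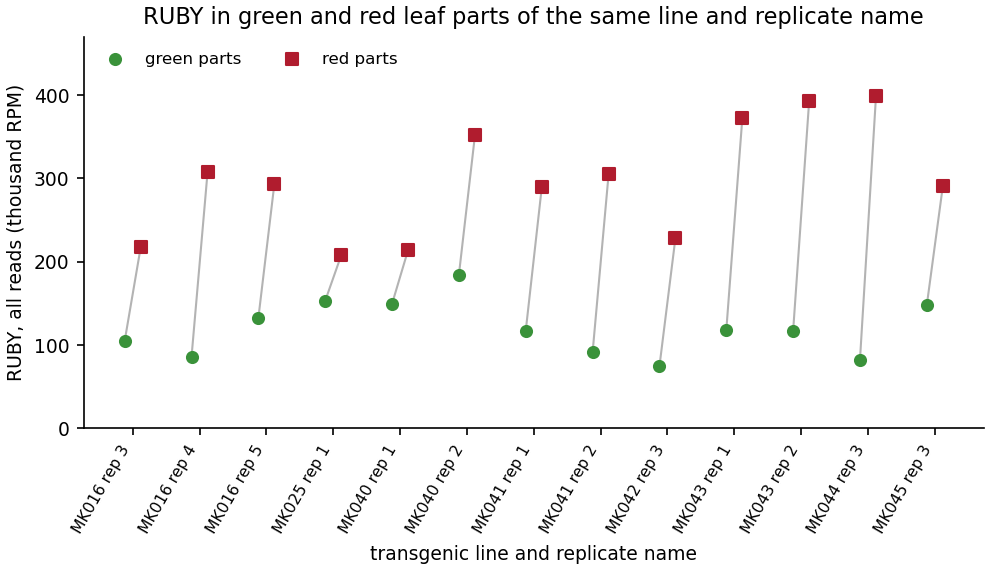
RUBY reads (in units of 1000 RPM, vertical axis) in the green parts (circles) and red parts (squares) of each of the 13 pairs, named by transgenic line and replicate. Every green library (74415 to 184480 RPM) lies below every red library (207868 to 398818 RPM), and the length of the joining line differs between transgenic lines.

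The size of the difference varied between lines. In line MK044 green parts held 82078 RPM and red parts 398818 RPM, a 4.86-fold difference and the largest of the 13 pairs. Line MK025 had the smallest, with 153169 RPM in green and 207868 RPM in red parts, or 1.36-fold. In line MK016 the green parts of replicates 3, 4 and 5 held 105112, 86065 and 132626 RPM, against 217671, 307780 and 293827 RPM in the red parts. These 3 pairs differed by 2.07-fold, 3.58-fold and 2.22-fold. The green parts of MK040 replicates 1 and 2 held 149523 and 184480 RPM, the latter the highest green value, and their red parts 214060 and 351640 RPM. Line MK041 had 117192 and 91205 RPM in the green parts of its 2 pairs and 289396 and 305385 RPM in the red parts. Line MK043 had nearly equal values in its 2 pairs, 117504 and 116847 RPM in green and 372078 and 392878 RPM in red parts. Line MK042 had the lowest green value, 74415 RPM against 228813 RPM in red parts. In line MK045 the values were 147899 and 290828 RPM.

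RUBY made up 20.7% ± 11.2 of the summed RPM of all targets in green parts and 41.8% ± 10.9 in red parts (SD, n = 13 and 13; permutation test, adjusted p = 0.00036). This share does not depend on the library total. It was lower in green in 12 of 13 pairs, and the exception was MK040 replicate 1, with 47.8% in green and 40.0% in red parts. In red parts RUBY was the most abundant target in 12 of 13 libraries. It was the most abundant in 8 of the 13 green libraries, while AXS2 led in 3 of the others and AGL20 in 2. Within set 1 the mean log2 difference of RUBY RPM was -1.08 and within set 2 it was -1.44. The exact permutation test within set 2 gave an adjusted p of 9.26e-05 (9 against 9), and in set 1 it gave an unadjusted p of 0.0286, the smallest that 4 against 4 libraries allow, and an adjusted p of 0.0514.

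The difference lay mostly in reads marked pA. Sense RUBY reads marked pA amounted to 21025 to 68670 RPM in green parts (median 38251) and 105759 to 300592 RPM in red parts (median 208815), with no overlap between the groups. The mean log2 difference was -2.31 (SE 0.23), lower in green in 13 of 13 pairs (permutation test, adjusted p = 3e-05). By limma RUBY was the only one of 39 targets called in sense pA reads, 2.56% of them. Pairs differed by 2.04-fold in MK025 to 14.3-fold in MK044, with a median of 4.76-fold.

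Sense reads not marked pA overlapped between the groups. They amounted to 46855 to 147077 RPM in green parts (median 60046) and to 60004 to 118682 RPM in red parts (median 86279). The mean log2 difference was -0.32 (SE 0.16), which did not pass over libraries (permutation test, adjusted p = 0.077). It passed by sign flips over the 13 pairs, as given at the end. In RPM these reads were lower in green in 10 of 13 pairs. Line MK040 and MK025 were the exceptions: the green parts of MK040 replicates 1 and 2 held 126389 and 147077 RPM against 95314 and 118682 RPM in red parts, and MK025 held 87567 against 75459 RPM. Without line MK040 the difference was -0.44 (adjusted p = 0.0037) and within set 2 it was -0.41 (exact permutation test, adjusted p = 0.0176). Within set 1 it was -0.13. Counted per 1000000 reads other than RUBY, a scaling chosen after seeing the data, the difference was -0.65 (permutation test, adjusted p = 0.00327). Directions of single pairs were not computed on that scale. By limma none of the 47 targets tested in these reads passed (0%), and 2 had an unadjusted p under 0.05.

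**Figure D2:**
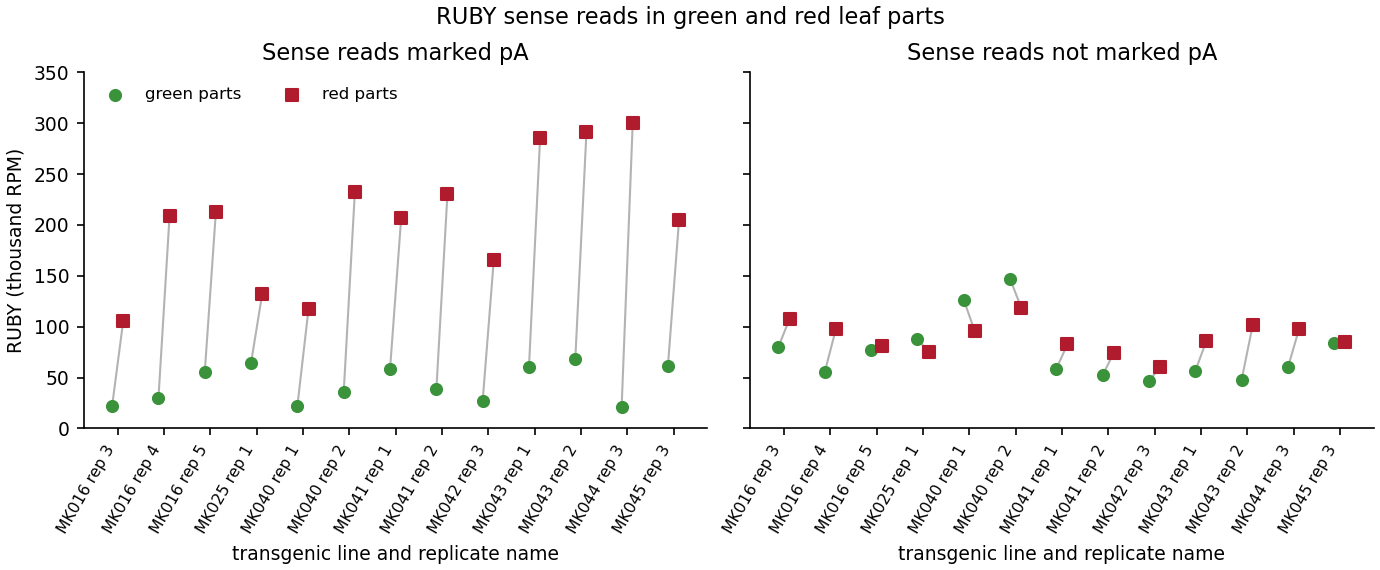
Sense RUBY reads (in units of 1000 RPM, shared vertical axis) marked pA (left) and not marked pA (right) in green parts (circles) and red parts (squares) of the 13 pairs. Reads marked pA are lower in green in all 13 pairs, while reads not marked pA are lower in 10 and higher in 3.

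In RPM, the difference in sense pA reads between red and green parts equalled 74.2% of the difference in all RUBY reads in MK016 replicate 3 and 147% in MK040 replicate 1, with a median over the 13 pairs of 89.7%. These percentages apply to RPM, whose total includes RUBY, and were not computed on another scale. Values above 100% belong to pairs in which the other reads were higher in green parts. The green parts thus differed from the red parts in the make-up of RUBY RNA as well as in its amount.

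The pA share of sense RUBY reads was 37.2% ± 13.3 in green parts and 68.7% ± 8.25 in red parts (SD, n = 13 and 13). It ran from 15.0% in MK040 replicate 1 to 58.9% in MK043 replicate 2 among green libraries (median 41.9%) and from 49.6% in MK016 replicate 3 to 76.8% in MK043 replicate 1 among red libraries (median 71.3%). The groups overlapped, since 3 green libraries lay above the lowest red value and 2 red libraries below the highest green value. Within pairs the green value was always the lower, by 15.2 percentage points in MK043 replicate 2 to 49.5 in MK044 (mean difference -31.5 points, SE 4.346; permutation test, adjusted p = 3e-05). With 40330 to 557353 RUBY reads per library the 95% Wilson interval of a share was at most 0.475 points to either side, which covers counting error only.

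The level of the share differed between the numbering sets, and the difference between the parts was present in both. In set 1 green parts had 15.0% to 34.9% and red parts 49.6% to 68.1%, a mean difference of -37.0 points (exact permutation test, adjusted p = 0.0514). Set 2 had 25.9% to 58.9% in green and 63.7% to 76.8% in red parts, a mean difference of -29.0 points (exact permutation test, adjusted p = 9.26e-05). Neither set showed an overlap between green and red libraries.

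The other captured RNAs of the same libraries did not show this shift. Summed over all targets except RUBY, the pA share of sense reads was 53.9% ± 5.50 in green parts and 53.8% ± 5.89 in red parts (SD, n = 13 and 13), a difference smaller than the spread between libraries. It was lower in green in 5 of 13 pairs, and pairs differed by -10.6 to 7.39 points. Tested target by target as the log2 ratio of pA to other sense reads, RUBY was the only one of 57 targets to pass in limma (1.75%; log2 difference -1.99, limma adjusted p = 1.28e-05). The 55 targets other than RUBY and GUS had a median difference of 0.05 and 30 of them were positive.

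**Figure D3:**
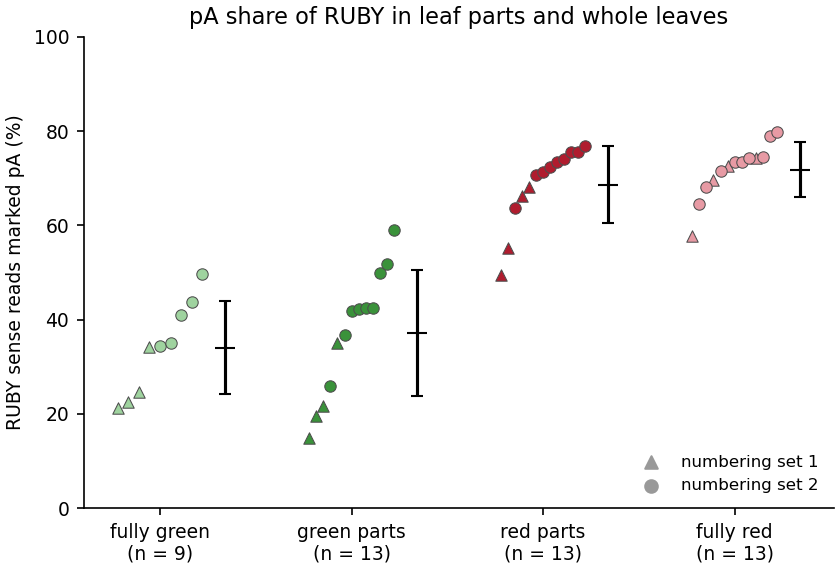
Share of sense RUBY reads marked pA (%, vertical axis) in each library of fully green leaves, green parts, red parts and fully red leaves, with the mean ± SD to the right of each group and the numbering set as the marker shape. Green parts average 37.2% and red parts 68.7%, and set 1 libraries sit in the lower range of both.

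Antisense RUBY reads were few, and their RPM did not differ detectably between the parts. They amounted to 127 to 2614 RPM in green parts (median 670) and 87.7 to 4247 RPM in red parts (median 417), so that the groups overlapped over almost their whole range. The mean log2 difference was 0.35 (SE 0.61), higher in green in 8 of 13 pairs (permutation test, adjusted p = 0.574). Relative to all RUBY reads, antisense reads made up 0.108% to 2.49% in green parts (median 0.621%) and 0.0303% to 1.95% in red parts (median 0.119%). The mean difference of this share, 0.362 points, did not pass over libraries (permutation test, adjusted p = 0.173). It passed by sign flips over the 13 pairs, as given at the end. The share was higher in green in 11 of 13 pairs. The 2 exceptions were MK042, with 0.509% in green and 1.36% in red parts, and MK040 replicate 1, with 0.590% and 0.633%. Most antisense reads were not marked pA: the marked share had a median of 1.41% in green parts and of 4.66% in red ones.

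Full-length RUBY molecules were rare in both parts and rarer in green. The collapsed full-length tables held 0 to 20 molecules per green library (median 7) and 2 to 412 per red library (median 94), 114 and 1821 in all. In RPM these were 0 to 39.3 in green (median 10.2) and 4.5 to 408 in red parts (median 122), and the groups overlapped. A count of 0, as in green parts of MK016 replicate 5 and MK040 replicate 1, allows up to 3 reads, or 6.17 RPM and 3.86 RPM. The mean difference of log2(RPM + 1) was -3.33 (SE 0.70), lower in green in 11 of 13 pairs (permutation test, adjusted p = 0.000135). By limma without pairs RUBY was the only one of 34 targets called among full-length reads, or 2.94% (adjusted p = 0.000606). Within set 1 the difference was -5.07 and within set 2 it was -2.56 (exact permutation test, adjusted p = 0.0154 in set 2).

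Relative to all RUBY reads, full-length molecules behaved differently from line to line. The full-length count is collapsed by molecular identifier, and the count of all reads is not named as collapsed. Their ratio may therefore also vary with duplicate reads. Red parts of MK016 had 15.5, 13.3 and 12.0 full-length molecules per 10000 RUBY reads, those of MK042 had 12.28 and those of MK025 8.52. The matching green parts had 0.571, 1.67 and 0 in MK016, 0.23 in MK042 and 0.593 in MK025. In these lines, as in MK040 and MK045, every green value was below its red partner. Lines MK041 and MK043 had few full-length molecules even in red parts. These were 0.155 and 0.986 per 10000 reads in MK041 and 0.907 and 1.08 in MK043. Green parts had more per 10000 reads, 2.20 and 4.30 in MK041 and 1.88 and 2.24 in MK043. Counts in MK041 were 12 and 18 molecules in green and 2 and 13 in red parts. In MK043 they were 11 and 19 in green and 24 and 29 in red parts. In MK044 the values were equal to 2 digits, 1.24 for each.

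The log2 ratio of full-length to all RUBY reads was lower in green by a mean of -2.01 (SE 0.75), lower in 8 and higher in 5 of 13 pairs (permutation test, adjusted p = 0.0204). This call rested on single lines and pairs, and the difference did not pass by sign flips over the 13 pairs. Without line MK016 the difference was -1.13 (adjusted p = 0.199), without MK040 it was -1.60 (0.0813) and without MK042 -1.75 (0.0556), and leaving out the pair MK016 replicate 5 gave -1.56 (permutation test, adjusted p = 0.0667). Within set 2 it was -1.13 (exact permutation test, adjusted p = 0.261) and within set 1 -3.98. Full-length molecules in antisense orientation appeared in 4 of 13 red libraries, 26 molecules in all, and in 0 of 13 green libraries.

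**Figure D4:**
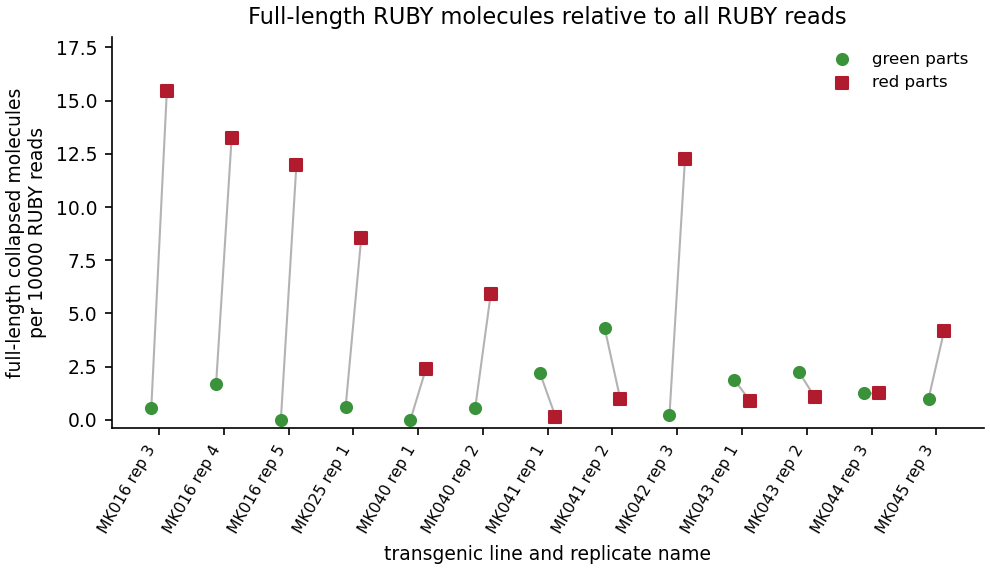
Full-length RUBY molecules collapsed by molecular identifier per 10000 RUBY reads (vertical axis) in green parts (circles) and red parts (squares) of the 13 pairs. Red parts reach 15.5 in MK016 and 12.28 in MK042, whereas in MK041 and MK043 the green parts lie above the red parts.

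The contrast between colours was also set against whole leaves, for the 9 line and replicate names with all 4 libraries. Fully green leaves had 84175 to 243154 RUBY RPM (median 114898, n = 9) and fully red leaves 180111 to 591756 RPM (median 390912, n = 13). Over the 9 names the mean log2 difference was -1.34 between green and red parts and -1.57 between fully green and fully red leaves. The mean difference between these contrasts was 0.23 (SE 0.21), above 0 in 4 of 9 names, and did not pass (exact sign-flip test, two-sided, adjusted p = 0.703). For the pA share the differences were -35.3 and -36.0 points, and the difference between them was 0.719 points (SE 1.88; exact sign-flip test, adjusted p = 0.703). The smallest p that 9 names allow is 0.00391. In MK040 replicate 1 the fully green leaf held more RUBY than the fully red one, 243154 against 180111 RPM, while its pA share was 22.5% against 72.6%. The green parts of MK040 replicate 1 had the lowest pA share of all parts, 15.0%.

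No relation between the change of pA reads and that of the other sense reads passed its test across pairs. Over the 13 pairs Pearson's r between both log2 differences was 0.34 (permutation p = 0.261, adjusted over 4 relations 0.348) and Spearman's rho 0.27 (permutation p = 0.366). Without the 2 pairs farthest from the median, MK025 and MK044, r was -0.01 (permutation p = 0.968). Over the 8 line means r was 0.49 (exact permutation p = 0.219) and within set 2, with 9 pairs, 0.56 (exact permutation p = 0.109) with a rho of 0.67 (exact permutation p = 0.0589), while set 1 with 4 pairs was too small. Both quantities share the library total of their pair.

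No target other than RUBY was called between the parts in any of the 6 limma comparisons as designed, which had no pair block. With pairs as a block, 5 other targets were called in full-length reads. In all reads, 49 of the 55 tested targets other than RUBY and GUS were higher in green parts, with a median log2 difference of 0.30. RPM adds up to a fixed total, and RUBY took 7.44% to 18.4% of all reads in green libraries and 20.8% to 39.9% in red ones. Counted per 1000000 reads other than RUBY, the median over the same 55 targets was -0.0031 and 27 of 55 were higher in green. On this scale RUBY differed by -1.66. Scaled instead to equal summed RPM of the targets, a sum that includes RUBY, the median was 0.51 and 52 of 55 were higher in green. Both scalings were chosen after seeing the data. With equal summed RPM limma called 12 of the 57 targets (21.1%), RUBY lower in green (-1.12, adjusted p = 0.00597) and 11 higher. These 11 were AGO1, DCL4, SUR1, HST, AXS2, ALY1, AT1G06000, the overlapping AT1G06002, AT1G63080, AT2G39870 and AT3G12210, with adjusted p from 0.0190 to 0.0470. The calls on these targets thus depend on the scaling. At an unadjusted p under 0.05 stood 2 of the 57 targets in RPM, RUBY and SUR1, and 2 per 1000000 reads other than RUBY.

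**Figure D5:**
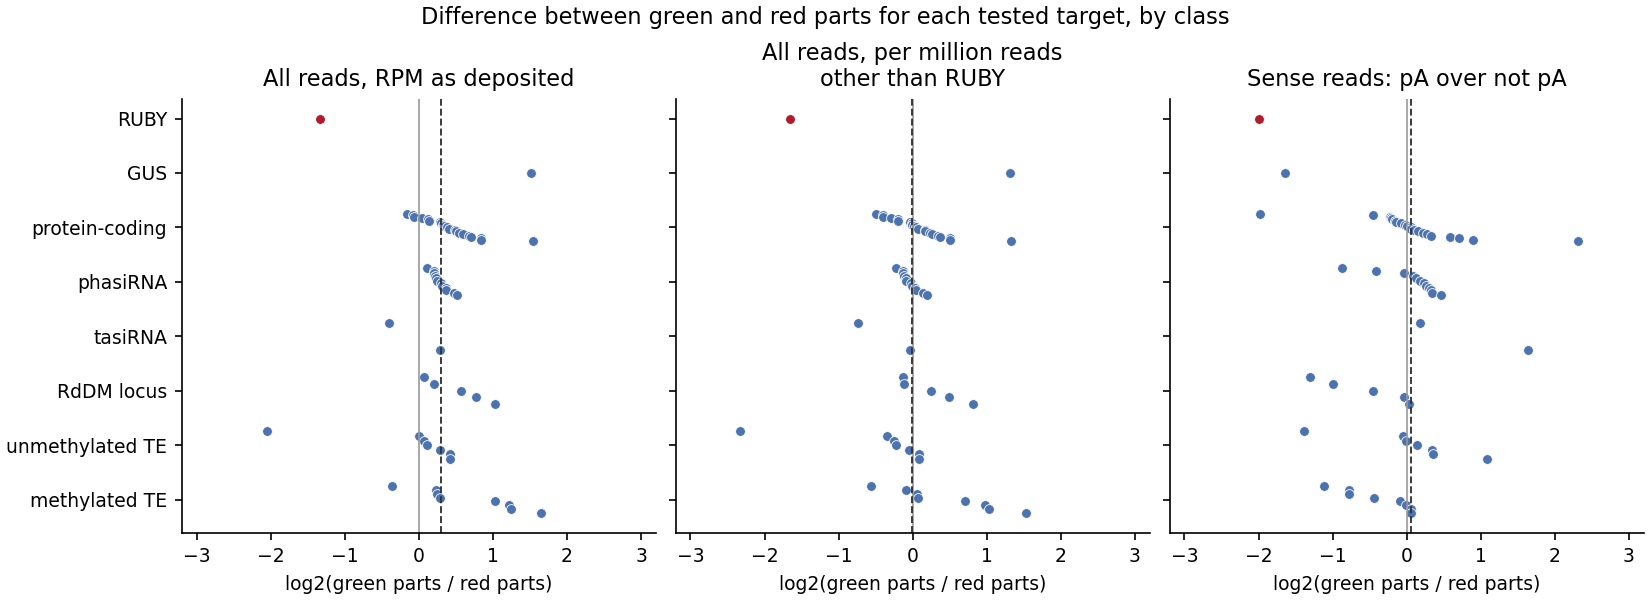
Log2 difference between green and red parts (horizontal axis) for each tested target by class, in RPM as deposited (left), per 1000000 reads other than RUBY (middle) and for the ratio of pA to other sense reads (right). The dashed line marks the median of the 55 targets other than RUBY and GUS, at 0.30, -0.0031 and 0.05, and RUBY lies at -1.33, -1.66 and -1.99.

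In all reads, none of the 8 genes of the silencing machinery was called in either direction in RPM as deposited (median log2 difference 0.30, beside 0.30 over all 55). Per 1000000 reads other than RUBY their differences ran from -0.29 to 0.07, with 3 of 8 positive. With equal summed RPM the median over all 55 was 0.51, and limma called 12 of the 57 targets (21.1%). AGO1 (0.50, limma adjusted p = 0.0462) and DCL4 (0.62, limma adjusted p = 0.0462) were among these, higher in green. On that scale AGO1 was also among 3 of 47 targets (6.38%) called in sense reads not marked pA (0.51, limma adjusted p = 0.0309). The median over the 45 targets other than RUBY and GUS was 0.48 in those reads. AGO1, the main slicer of small RNA silencing and the most abundant of the 8, had 6270 to 26933 RPM in green parts (median 14993) and 3912 to 19695 RPM in red parts (median 11706). The groups overlapped, with a log2 difference of 0.29 (SE 0.26; limma adjusted p = 0.711). DCL4, which cuts double-stranded RNA into small RNAs, had 1060 to 9256 RPM in green (median 4419) and 1670 to 7064 RPM in red parts (median 3321), a log2 difference of 0.41 (SE 0.33; limma p = 0.233, not called). Its green libraries covered the whole red range. In full-length reads with pairs as a block limma called 6 of 34 targets. AGO1 (1.14, limma adjusted p = 0.0483) and AGO4 (1.63, limma adjusted p = 0.0307) were among them, higher in green.

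The enzymes that start the double-stranded RNA pathway gave no call either. RDR6, the RNA-dependent RNA polymerase, had medians of 2326 RPM in green and 2505 RPM in red parts (log2 difference 0.14, SE 0.35). SGS3, its partner, had medians of 1855 and 1412 RPM (0.34, SE 0.51). The remaining members AGO4, AGO6, SDE3 and NRPD1B, a subunit of RNA polymerase V, had log2 differences of 0.13, 0.30, 0.38 and 0.04.

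TAS3, the precursor of trans-acting small RNAs made through the same enzymes, had 9565 to 94657 RPM in green parts (median 67566) and 8689 to 136633 RPM in red parts (median 46481). The groups overlapped and TAS3 was higher in green in 9 of 13 pairs (log2 difference 0.57, SE 0.39; limma adjusted p = 0.655). Its reads not marked pA were higher in green in 11 of 13 pairs (log2 difference 0.92, limma adjusted p = 0.724). The pA share of TAS3 had a median of 69.1% in green and 74.4% in red parts, so most of its sense reads were marked pA in both parts.

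The 12 targets of the phased small RNA (phasiRNA) class, which RDR6 also copies, were all higher in green in RPM (median log2 difference 0.27, range 0.11 to 0.52) and gave 0 calls, with 0 of 12 at an unadjusted p under 0.05 in limma. Per 1000000 reads other than RUBY 4 of 12 were positive (median -0.06). The 6 pentatricopeptide repeat genes among them had a median of 0.34 in RPM. AT1G63080 had medians of 3171 RPM in green and 1740 RPM in red parts (log2 difference 0.47, SE 0.35), AT1G62910 medians of 7002 and 4795 RPM (0.37, SE 0.35) and AT1G63130, the most abundant of the 6, medians of 8599 and 8347 RPM (0.20, SE 0.31). AT5G43740, the most abundant of the class, had medians of 11259 and 7082 RPM (0.20, SE 0.35) and AT2G39870 medians of 3262 and 2993 RPM (0.36, SE 0.29). In each of these 5 the libraries of both parts overlapped. The tasiRNA class has 2 targets: AT1G63150, with medians of 5361 RPM in green and 4055 RPM in red parts (0.29, SE 0.33), and LBD41, a transcription factor gene of the LOB domain family, with 898 and 883 RPM (-0.40, SE 0.66).

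Tyrosine is the substrate of betalain synthesis, and SUR1, HST and PDS1 were listed together here as tyrosine-linked metabolism. SUR1, a C-S lyase of glucosinolate synthesis, had the smallest unadjusted p after RUBY. It reached 4120 to 26439 RPM in green parts (median 13784) and 4569 to 22526 RPM in red parts (median 7470). The groups overlapped, and SUR1 was higher in green in 9 of 13 pairs (log2 difference 0.67, SE 0.27; limma p = 0.0191, adjusted p = 0.546). HST, a homogentisate prenyltransferase of plastoquinone synthesis, had medians of 39602 RPM in green and 27144 RPM in red parts (0.60, SE 0.39; limma adjusted p = 0.655). PDS1, the dioxygenase that makes homogentisate from a tyrosine derivative, had medians of 11521 and 13717 RPM (-0.16, SE 0.25). It was not called in the fits as designed. Limma with centring and numbering set, chosen after seeing the data, called it lower in green in pA reads (-0.66, adjusted p = 0.0294). The same fit called it in full-length reads (-0.79, limma adjusted p = 0.0333). Per 1000000 reads other than RUBY the 3 differences were 0.34 for SUR1, 0.26 for HST and -0.49 for PDS1.

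The other protein-coding targets showed no call in the limma fits as designed. AXS2, AT1G06000, AT1G06002, ALY1 and AT3G12210 were called with equal summed RPM, as given above. AGL20, a MADS-box activator of flowering and the most abundant target of its class, had 19885 to 171830 RPM in green parts (median 97707) and 12028 to 186430 RPM in red parts (median 104484). Its log2 difference was -0.08 (SE 0.38; limma adjusted p = 0.907), higher in green in 6 of 13 pairs. AT1G06000, a flavonol rhamnosyltransferase gene, had medians of 1974 and 1135 RPM and was higher in green in 11 of 13 pairs (0.84, SE 0.44; limma adjusted p = 0.655). The overlapping target AT1G06002 has the same totals with the strands exchanged, so both describe the same reads. AXS2, an enzyme of UDP-apiose and UDP-xylose synthesis, had medians of 106443 and 57785 RPM (0.49, SE 0.35).

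Transposable elements of the methylated class were low and scattered. Of the 19 targets of the methylated TE class 8 passed the filter of reads in at least 13 libraries, and none was called, with 0 at an unadjusted p under 0.05 in limma. AT2G02210, the most abundant, had 43.0 to 722 RPM in green (median 317) and 8.27 to 628 RPM in red parts (median 155; log2 difference 1.03, SE 0.64; limma adjusted p = 0.655). AT5G17125 had reads in 19 of 26 libraries, with up to 238 RPM in green and 107 RPM in red parts (1.64, SE 0.98; limma adjusted p = 0.655). All 7 targets of the unmethylated TE class passed the filter, with a median of 0.11 and 0 calls. AT2G10410, of the SADHU family, had medians of 7591 and 6984 RPM (0.11, SE 0.48). It held 71694 RPM in green parts of MK016 replicate 3 and 48770 RPM in red parts of MK016 replicate 4. In these libraries, both of set 1, it was the most abundant target after RUBY. AT5TE76220 was above 0 in 13 of 26 libraries and reached at most 34.6 RPM in green and 105 RPM in red parts (-2.05, SE 1.01; limma adjusted p = 0.655). AT5TE76215 had medians of 5148 and 3323 RPM (0.42, SE 0.38). Of the 8 RdDM loci (targets of RNA-directed DNA methylation, TAS3 among them) 5 passed the filter, with a median of 0.57 and 0 calls. AT5TE85500 had medians of 317 and 187 RPM (0.78, SE 0.81).

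GUS, a reporter sequence that the 35S::RUBY label does not name, was above 0 in 20 of 26 libraries. It reached 1781 RPM in a single green library, against medians of 32.2 RPM in green and 26.5 RPM in red parts (log2 difference 1.51, SE 1.15; limma adjusted p = 0.655). The second construct target, eGFP, was above 0 in 8 libraries, at most at 42.4 RPM, and was not tested.

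By strand and by pA mark the other targets also gave no call in the limma fits as designed. In the ratio of pA to other sense reads, 3 targets besides RUBY had an unadjusted p under 0.05. LBD41 had a median pA share of 40.8% in green and 19.7% in red parts (1.63, limma adjusted p = 0.501). ALY1 had 7.76% and 20.5% (-1.97, limma adjusted p = 0.501), and AT2G39870 had 8.97% and 16.7% (-0.87, limma adjusted p = 0.614). In antisense reads 42 targets were tested and 0 were called by limma (0%), with 3 at an unadjusted p under 0.05. RDR6 was among them, with antisense medians of 106 RPM in green and 279 RPM in red parts, lower in green in 12 of 13 pairs (log2 difference -2.19; limma p = 0.00817, adjusted p = 0.343).

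Among collapsed full-length reads, 30 of the 33 tested targets other than RUBY were higher in green parts (median log2 difference 0.56). In limma 8 of the 33 had an unadjusted p under 0.05, but none passed the adjustment in the fit without pairs. With pairs as a block AXS2, AGO1, AGO4, HST and AT3G12210 passed, higher in green (limma adjusted p 0.0206 to 0.0483). AGO4, a slicer that acts in RNA-directed DNA methylation, had medians of 13.6 RPM in green and 2.82 RPM in red parts. Its log2 difference without pairs was 1.63 (limma p = 0.00747, adjusted p = 0.127). These medians are few molecules, since 1 read was worth a median of 1.71 RPM in green and 1.38 RPM in red libraries. HST had 1205 and 555 RPM (0.90, limma adjusted p = 0.157) and AT3G12210 had 426 and 241 RPM, higher in green in 12 of 13 pairs (0.62, limma adjusted p = 0.157). Per 1000000 reads other than RUBY the median over these 33 targets was 0.29, with 26 of 33 higher in green. AGL20 had full-length medians of 3048 and 3156 RPM (0.01). RUBY, with -3.33, had the opposite sign from that median.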

How the data were processed

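The members and the target lists were chosen with earlier results of these data known. Per the labels, total RNA was ligated to a 3′ adapter, reverse transcribed with template switching, barcoded, enriched with capture probes and read by nanopore sequencing. The submitters' processing notes name TAIR10 and cutadapt, and the aligner is not given in the sources used here. The deposited values are RPM, that is reads per 1000000 reads of the library, for each target in all, by strand and by pA mark. All 5913 values above 0 in the 26 libraries were whole multiples of 1 read within 0.01 RPM. The design had expected signal values; the test was not changed. Shares in percent were computed here from the deposited RPM.

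A target was tested where at least 13 libraries were above 0, by limma 3.58.1 (R 4.3.3) on log2(RPM + 1), with p-values adjusted over all tested targets. A fold change on this scale understates the change of low targets. RUBY measures were tested by permutation over libraries (scipy 1.17.1), exact within numbering sets, two-sided and adjusted over 9 measures. Targets absent from the full-length tables were taken as 0. Overlapping targets share reads. Besides RUBY and GUS, the named targets were the member of each class or list with the highest mean and the 2 with the smallest unadjusted p. RDR6, SGS3, AGO4, AGO6, SDE3, NRPD1B, PDS1, AXS2, AT1G06002, ALY1 and AT3G12210 were named after their values were seen, to complete a list or a count. The alternatives were other pseudocounts, filters and scalings, sets, lines and pairs left out, a pair block, a line block and, for RUBY, means per line. Scaling to reads other than RUBY or to equal summed RPM, target fits within sets, and the fit with numbering set and centring were chosen after seeing the data.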

Additional observations from a re-analysis of the deposited data

Results flagged for a closer look

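Among fully green leaves, the library of MK040 replicate 1 stood apart in antisense RUBY reads, with 3803 RPM against 1404 RPM in the next library (the gap was 0.660 of the range of the 9 libraries, above the 95% limit of Dixon's test). Its antisense share of RUBY reads, 1.56% against 0.805% in the next, was also apart (0.544). In this group 8 measures were screened and 2 flagged, both from the same antisense reads. Chance marks about 1 in 20 such groups for each measure screened.

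A library titled Col-0 Green, whose labels give the construct 35S::RUBY and which enters no comparison, held 295 RPM of RUBY (759 reads), above the 1.17 RPM that a count of 0 allows. It held 609741 RPM of GUS, 84.5% of its summed RPM.

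Of the 4 lines with 2 or more pairs, some moved in opposite directions in every pair. The measures below were picked from 9 screened, and these differences between lines were not tested. Sense RUBY reads not marked pA were higher in green parts in MK040 (mean log2 difference 0.36) and lower in MK016 (-0.44), MK041 (-0.50) and MK043 (-0.85). Full-length RUBY molecules were higher in green parts in MK041 (1.33) and lower in MK016 (-6.26), MK040 (-4.98) and MK043 (-0.63). Counts were low: 12 and 18 molecules in green against 2 and 13 in red parts of MK041. In MK043 they were 11 and 19 against 24 and 29. Green parts of MK016 replicate 5 and MK040 replicate 1 had 0, so the size of those differences depends on the pseudocount. The ratio of full-length to all RUBY reads was higher in green parts in MK041 (2.85) and MK043 (1.07) and lower in MK016 (-4.92) and MK040 (-4.25).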

How the results depend on the processing

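Where RUBY was called, its difference kept its sign under every alternative run. With line as a block limma called RUBY alone in all reads and in pA reads (adjusted p = 2.99e-05 and 4.14e-08). The same held for the ratio of pA to other reads and for full-length reads (limma adjusted p = 1.09e-06 and 0.00279). With equal summed RPM, limma called 12 targets in all reads (11 higher in green) and 13 in full-length reads. On that scale it called 5 in pA reads: RUBY, AXS2, RPF3 of the phasiRNA class, SUR1 and AT3G12210. In reads not marked pA it called 3: AGO1, SUR1 and AT2G39870. The targets other than RUBY were higher in green. Within set 1 limma called 0 in all reads. Within set 2 it called 0 in full-length reads, 2 in all reads and 2 in pA reads. Besides RUBY this was AT3G12210, higher in green (0.64 and 0.71, limma adjusted p = 0.0248 and 0.0263). Centred and with numbering set in the model, limma called 2 in pA reads and 2 in full-length reads. These were RUBY and PDS1 each time, lower in green. In set 1 limma called RUBY in pA reads, in full-length reads and in the ratio of pA to other reads (adjusted p = 0.00541, 0.000605 and 0.0364). By exact permutation none of the 9 RUBY measures passed there (lowest adjusted p 0.0514), and RUBY differed by -1.08 (all reads), -2.54 (pA), -37.0 points (pA share), -19.5 points (share of summed RPM), -5.07 (full-length) and -3.98 (full-length ratio). The full-length ratio was -1.06 with a pseudocount of 10, -1.13 within set 2 and -1.13, -1.60 and -1.75 without MK016, MK040 and MK042, none of which passed, and -2.47 to -1.56 without single pairs. Reads not marked pA passed at -0.65 (per 1000000 other reads), -0.41 (set 2) and -0.44 (without MK040), and ran from -0.38 to -0.26 without single pairs, -0.37 without MK040 replicate 2. Antisense RUBY turned to -0.0078 when centred and -0.49 in set 1. The pA share of parts against whole leaves was -0.81 over line means, and the correlation of pA and other reads was -0.013 without 2 pairs. The cause was not tested.

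The pairs share a line and replicate name, and the labels do not say whether they share a leaf or plant. Own-pair correlations over 55 targets ran from -0.25 to 0.62 (median 0.21), 9 of 13 over 0.1. Libraries of different names had a median of -0.017. Of the 13 green libraries, 3 correlated best with their own partner. With a pair block, reads not marked pA (-0.32, adjusted p = 0.0427) and the antisense share (0.36, adjusted p = 0.0427) passed in a permutation by sign flips, the full-length ratio (-2.01, adjusted p = 0.0571) did not, and limma called 6 of 34 full-length targets: RUBY, lower in green, and AXS2, AGO1, AGO4, HST and AT3G12210, higher in green by 0.91, 1.14, 1.63, 0.90 and 0.62 (adjusted p 0.0206 to 0.0483).

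Among uncalled targets, signs turned when centred, per 1000000 other reads, and with set and centring for AGO1 (-0.062, -0.039, -0.062), AT1G63130 (-0.15, -0.13, -0.15), AT2G10410 (-0.25, -0.23, -0.25), AT5G43740 (-0.15, -0.13, -0.15) and AT1G63150 (-0.064, -0.041, -0.064). Within set 1 they turned for GUS (-0.74), DCL4 (-0.20), AT2G10410 (-0.059), AT5G43740 (-0.17) and LBD41 (0.14), and with equal summed RPM for AGL20 (0.13).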
